A study of Mus musculus with 18 samples.

Results

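The endothelial genes through which leukocytes attach to and cross the vessel wall were followed in sorted endothelial cells of the mouse cortex after stroke. They were Sele, Selp, Ackr1, Vcam1, Icam1, Icam2, Alcam, Mcam and Cd99l2, taken from the deposited table by symbol. All 9 were found among its 21638 genes, and all 9 had at least 10 counts in at least 3 of the 18 libraries, as 17094 genes did. Stroke was induced by occluding the middle cerebral artery (MCAO), and sham mice served as controls. Cells were sorted as positive for CD31 and negative for CD41 and CD45, per the series' design text. The libraries formed 6 groups of 3. Sham and MCAO mice, both labelled WT, gave cells from the side of the surgery (ipsilateral) and from the opposite side (contralateral). The Hdac2 ECKO and Ezh2 ECKO groups were ipsilateral cells of MCAO mice in which tamoxifen activates a Cre recombinase under the endothelial Cdh5 promoter to delete floxed alleles (Hdac2lox/lox:Cdh5CreERT2 and Ezh2lox/lox:Cdh5CreERT2). All 6 groups were labelled with tamoxifen at 75 mg/kg, which the design text describes for the deletion mice as 5 doses from day 0 to day 4, and cells were taken on day 7. The mice were adult. Exact ages, pooling of animals and whether the sham and MCAO mice carried the Cre were not given in the sources used here. The labels do not say that the 3 libraries of a group came from separate animals, so the p-values measure the spread between these libraries, which may be technical.

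Leukocytes leave the blood in steps. Selectins on the endothelium catch them and let them roll, chemokines held at the vessel surface activate their integrins, and endothelial immunoglobulin-type ligands (the Icam and Vcam proteins) then hold them fast before they pass between or through the endothelial cells. In the brain these steps take place mainly in postcapillary venules, and inflammatory cytokines induce several of the genes through NF-kB, AP-1 and STAT factors.

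Promoter sequence is shown for Icam1, whose level differed most between the deletions by unadjusted p-value, and for Sele, the classical cytokine-induced selectin, because both held sites of the same STAT motif. Sequences are the 250 bases before the RefSeq start (build GRCm38.p6, plus strand for both), read 5′ to 3′, with motif matches in capitals. Icam1 lies at chr9:21015690-21015939 and Sele at chr1:164047984-164048233.
Icam1: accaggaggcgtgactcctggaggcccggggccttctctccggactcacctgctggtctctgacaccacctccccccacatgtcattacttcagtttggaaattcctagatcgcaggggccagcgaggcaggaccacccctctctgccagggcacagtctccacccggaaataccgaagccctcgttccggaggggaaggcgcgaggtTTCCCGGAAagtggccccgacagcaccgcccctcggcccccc
Sele: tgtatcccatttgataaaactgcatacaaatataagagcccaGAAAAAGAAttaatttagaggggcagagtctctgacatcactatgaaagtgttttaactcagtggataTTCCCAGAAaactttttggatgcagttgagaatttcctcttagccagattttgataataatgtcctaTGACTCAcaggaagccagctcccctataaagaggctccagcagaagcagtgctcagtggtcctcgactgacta

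The motifs were searched on both strands of windows from 250 bases before to 50 after the start. They were 4, the STAT motif TTCNNNGAA, the AP-1 motif TGANTCA, the interferon-type motif GAAANNGAA and the kappa-B consensus. Icam1 held TTCCCGGAA, a STAT match, at position −42 from the start. Sele held all but the kappa-B consensus, with TGACTCA at −73, TTCCCAGAA at −140 and GAAAAAGAA at −208. Selp held the AP-1 match TGATTCA at −139 and the interferon-type match GAAAGCGAA at 9 bases after the start. None of the 4 motifs was found in the windows of Ackr1, Alcam, Cd99l2 and Mcam, and 7 of the 9 genes had a RefSeq window, all but Vcam1 and Icam2. No match to the kappa-B consensus lay in these 7 windows. The search took only exact matches to a strict consensus of 10 letters that starts with GGG. Letters that depart from it, such as ggaaattcc in the Icam1 sequence above, were not counted. The absence of a match therefore does not show that these promoters lack NF-kB sites. Over 32851 mouse promoter windows of the same length, 8.30% held the STAT motif, 7.81% the AP-1 motif, 8.56% the interferon-type motif and 4.51% the kappa-B consensus. The matches found did not overlap each other. A match describes letters only.

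The libraries held 25791401 to 57576255 counts each, with both mates of a read pair counted. Levels are given as CPM, counts scaled to 1e6 per TMM-adjusted library total, and 3 counts corresponded to 0.0619 to 0.101 CPM. Hdac2 stood at 57.6, 85.0 and 87.9 CPM in the libraries labelled Hdac2 ECKO against 68.2 to 96.1 in MCAO ipsilateral, and Ezh2 at 8.41, 12.0 and 19.7 CPM in those labelled Ezh2 ECKO against 4.45 to 7.85. Neither was lower in the libraries labelled as its deletion beyond the spread, and Ezh2 was higher there without overlap. Directions below therefore rest on the labels, and whole-gene counts do not show the loss of single exons. The 10 endothelial markers summed to 6842 to 24263 CPM per library, and Ptprc, which encodes the CD45 used to remove leukocytes, stood at 0.129 to 6.57 CPM. Diffuse background was measured by the counts on 1466 genes of olfactory and vomeronasal receptors, which ran from 152 to 2083 CPM of the library total, and 2 libraries stood apart, MCAO contralateral replicate 1 (1889) and Ezh2 ECKO replicate 2 (2083). Values without them are given where they moved a result by over 1.5 times or changed a call, and for Alcam.

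Levels can be compared between the genes per kilobase of gene feature. Icam2 was the highest at 105 ± 69.3 CPM per kb over the 18 libraries (SD), followed by Ackr1 at 15.0 ± 14.4, Vcam1 at 14.2 ± 5.63 and Icam1 at 6.30 ± 3.72. Mcam stood at 4.22 ± 2.16 CPM per kb, Cd99l2 at 3.53 ± 1.47, Alcam at 2.00 ± 1.09, Sele at 0.679 ± 0.785 and Selp at 0.109 ± 0.0939. Only Icam2 differed from its neighbour in this order, Ackr1, by more than the sum of their SDs, and every later pair of neighbours differed by less. Across the libraries Vcam1 varied least, 4.54-fold from lowest to highest, and Ackr1 varied 204-fold.

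**Figure D1:**
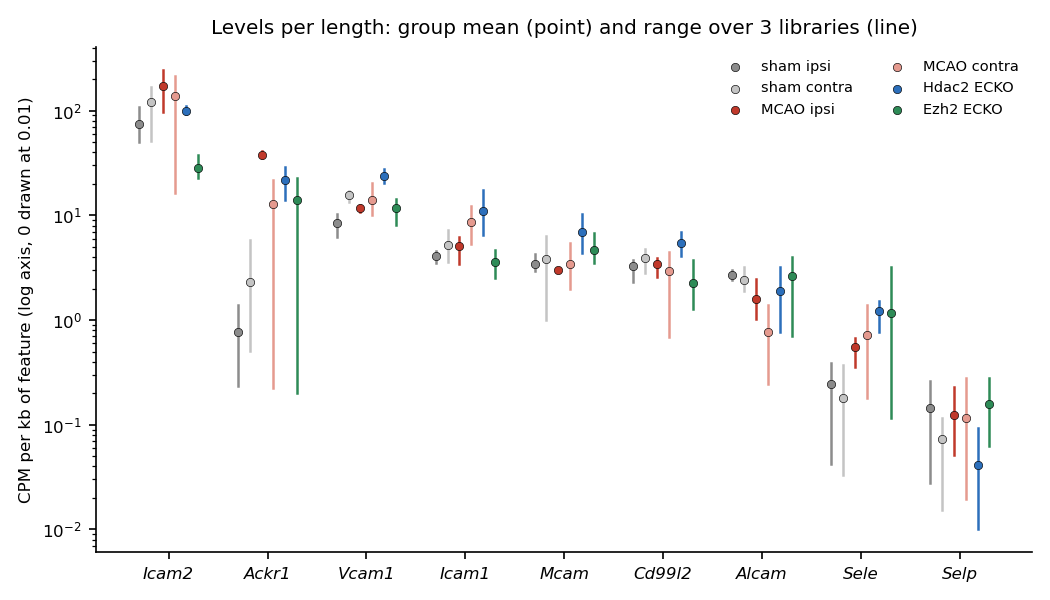
Group means (points) and the range over 3 libraries (lines) of each adhesion gene, in CPM per kb of gene feature on a log axis. Icam2 lies highest at a mean of 105 CPM per kb, Selp lowest at 0.109, and the points of Ackr1 spread furthest between groups.

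Sele and Selp, the selectins that catch passing leukocytes, were scarce in every group. Selp, normally stored in endothelial granules, had 0 to 49 counts per library, no more than 1.24 CPM, and 0 counts in Hdac2 ECKO replicate 2. Its sham and MCAO libraries overlapped on both sides. A level this close to the floor leaves changes of Selp hardly detectable at this depth.

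Sele stood at 0.124, 1.12 and 0.883 CPM in sham ipsilateral and 1.07, 0.404 and 0.0961 in sham contralateral libraries. In MCAO it stood at 1.96, 1.04 and 1.87 CPM ipsilaterally and 1.66, 0.523 and 4.07 contralaterally. All Hdac2 ECKO libraries (4.43, 2.26 and 3.91 CPM) lay above all MCAO ipsilateral ones, whereas a single Ezh2 ECKO library (9.36) lay far above the other two (0.484 and 0.335). Over both sides Sele was higher in MCAO than in sham by 1.59 ± 0.86 on the log2 scale (SE, n = 6 per condition, edgeR's quasi-likelihood test, unadjusted p 0.0800, adjusted p-value 0.624), and ipsilaterally by 1.19 ± 1.21 (adjusted p-value 0.828). The labels do not say whether the 2 sides came from the same mice, so the 6 libraries of a condition may not be independent. With the sides of equal number summed, Sele was higher by 1.60 (adjusted p-value 0.417), and 8 genes in place of 26 were called over both sides. The counts of 4 to 347 per library left an ipsilateral 95% interval from −1.32 to 3.70.

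Ackr1 showed the widest difference of the 9 genes. It encodes an atypical receptor that binds inflammatory chemokines without G protein signalling, carries them across endothelial cells, and marks postcapillary venules. In sham mice it stood at 0.330, 1.98 and 0.963 CPM ipsilaterally and at 0.716, 0.807 and 8.21 contralaterally. In MCAO ipsilateral libraries it stood at 58.1, 49.3 and 52.3 CPM, and in MCAO contralateral ones at 0.314, 22.7 and 30.9. Every MCAO ipsilateral library thus lay above every sham library, while on the contralateral side 2 of 3 MCAO libraries did and replicate 1, of high background, lay below all 6 sham libraries.

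The ipsilateral means of 53.2 ± 4.51 and 1.09 ± 0.831 CPM (SD, n = 3 each) differed 48.8-fold, or by 5.61 ± 1.40 on the log2 scale (SE; unadjusted p 6.49e-04). In edgeR's quasi-likelihood test this ranked 25 of 17094 genes by p and had an adjusted p-value of 0.442, so it did not pass. Contralaterally the log2 difference was 2.46 ± 1.21 (adjusted p-value 0.920), or between 1.82 and 4.58 when single libraries were left out, the highest without sham contralateral replicate 3. Over both sides it was 4.04 ± 0.92 (unadjusted p 2.55e-04, adjusted p-value 0.0803). Without MCAO contralateral replicate 1 the adjusted p-value over both sides was 0.0108, without both libraries of high background 0.00195, and with the sides summed 0.0740. With only the 2 ipsilateral groups in the fit, edgeR gave Ackr1 an adjusted p-value of 0.00129, and DESeq2 gave 0.00114. In these bulk libraries more cells of a type and more RNA per cell cannot be told apart.

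Within MCAO, Ackr1 was higher ipsilaterally than contralaterally in all pairs of libraries, with a log2 difference of 1.57 ± 1.17 and an adjusted p-value of 1 in edgeR. Without MCAO contralateral replicate 1 the difference was 0.97. The test of the side difference in MCAO against that in sham gave 3.14 ± 1.68 (unadjusted p 0.0745, adjusted p-value 0.941), and 1.03 without sham contralateral replicate 3, whose Ackr1 level was 8.21 CPM. With the background as a covariate, the ipsilateral log2 difference between MCAO and sham was 3.79.

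Other measurements moved with Ackr1. Its annotated exons (chromosome 1, 173331886 to 173333750, minus strand) share 361 of 1405 bases, 25.7%, with Cadm3, a cell adhesion gene read in the same direction (173333258 to 173367695), so reads there are uncertain. Cadm3 itself stood at 0.161 to 0.620 CPM in sham ipsilateral and 3.13 to 4.60 in MCAO ipsilateral libraries. In MCAO contralateral ones it stood at 0.565, 1.79 and 1.71 CPM. Its counts in MCAO ipsilateral were 131 to 202, and those of Ackr1 were 2186 to 2550. How reads of the shared bases were counted is not given in the sources used here. The 6 venous endothelial markers, all detected in every group, summed to 443 to 563 CPM in sham ipsilateral, 507 to 571 in sham contralateral, 583 to 1573 in MCAO ipsilateral and 624 to 1194 in MCAO contralateral libraries, without overlap on either side. They did not move together, since Tmem252 averaged 516 CPM in MCAO ipsilateral against 91.2 in sham while Nr2f2, the transcription factor of venous identity, averaged 13.4 against 29.8. Marker sums of other cells also separated the ipsilateral groups without overlap. They were higher in MCAO than in sham for microglia and macrophages (11.0 to 27.6 against 5.70 to 9.43 CPM), neurons (126 to 182 against 56.0 to 110), platelets (36.3 to 39.5 against 18.3 to 23.8) and the 10 endothelial markers (15188 to 24263 against 9659 to 12468), and lower for pericytes and smooth muscle (38.0 to 88.7 against 97.3 to 151). A sum follows its most abundant genes, and single markers did not all move with it. The log2 difference was above 0 for 2 of 5 neuron markers (median −0.74) and 4 of 10 endothelial ones (−0.24). It was above 0 for 7 of 9 tested microglia and macrophage markers, 4 of 6 platelet markers and 1 of 8 pericyte and smooth muscle markers. Contralaterally only the pericyte, astrocyte and venous sums were without overlap. The astrocyte sum was lower in MCAO (32.9 to 52.3 CPM) than in sham (54.4 to 83.8). Its markers were split, with 2 of 5 above 0 in log2 difference (median −0.50). The part of these cells and of Cadm3 reads in the Ackr1 difference was not tested.

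**Figure D2:**
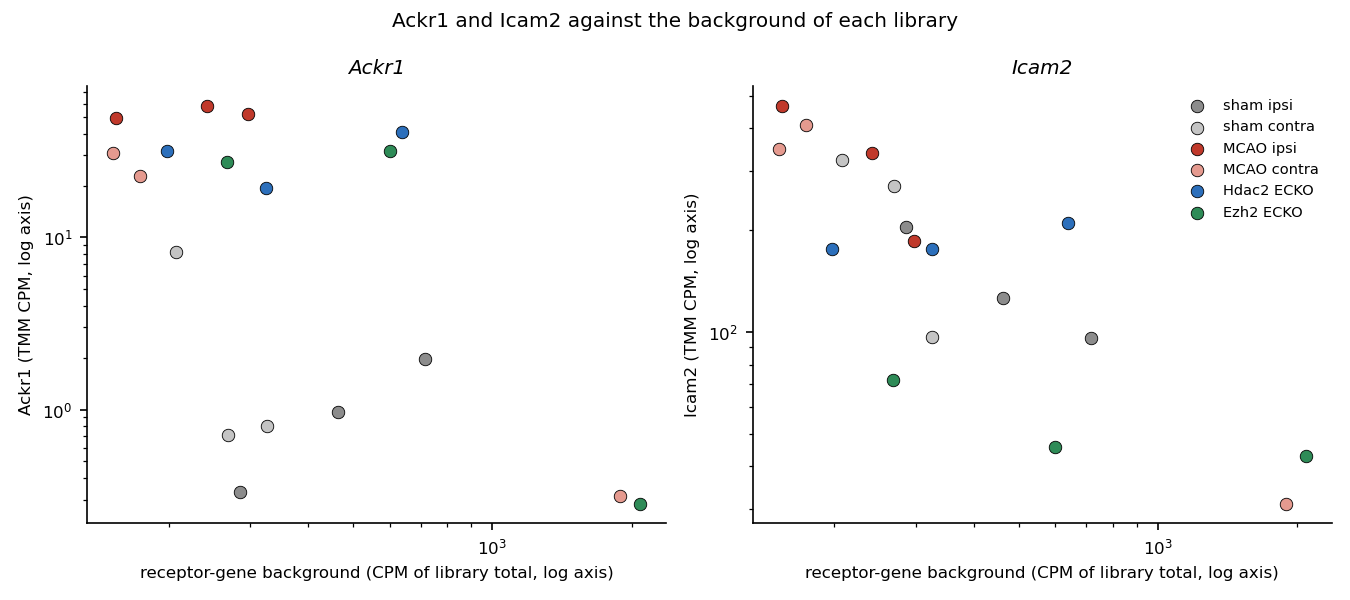
Ackr1 (left) and Icam2 (right) in TMM CPM against the receptor-gene background of the same library in CPM of the library total, both on log axes, with 1 point per library. The 2 libraries of highest background (1889 and 2083 CPM) have the lowest Ackr1 values, 0.314 and 0.285 CPM, and 2 of the lowest Icam2 values, 31.1 and 43.0 CPM.

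With either deletion Ackr1 stood above the sham ipsilateral range in 5 of 6 libraries. It stood at 32.0, 19.5 and 41.0 CPM in Hdac2 ECKO and at 27.6, 0.285 and 31.9 in Ezh2 ECKO, where the low value is that of the library with the highest background. All 6 lay below the 3 MCAO ipsilateral libraries, with log2 differences of −0.79 ± 1.15 for Hdac2 ECKO (adjusted p-value 0.846 in edgeR) and −1.42 ± 1.17 for Ezh2 ECKO (0.487). Without Ezh2 ECKO replicate 2 the latter was −0.86, and with the background as a covariate it was −0.044, while the Hdac2 ECKO difference changed sign to 0.43. Against sham ipsilateral, Ackr1 was higher by 4.82 ± 1.35 in Hdac2 ECKO (adjusted p-value 0.344) and by 4.19 ± 1.32 in Ezh2 ECKO (0.485). Without the high-background Ezh2 ECKO library this was 4.76 (0.166), and with both high-background libraries left out of the fit 4.76 (0.0233). Both deletions are set against the same MCAO libraries here and against the same sham libraries.

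Vcam1 encodes the endothelial ligand of the leukocyte integrin alpha-4 beta-1. It stood at 91.7, 77.2 and 54.5 CPM in sham ipsilateral, 152, 146 and 120 in sham contralateral, 112, 102 and 96.0 in MCAO ipsilateral, and 108, 89.0 and 179 in MCAO contralateral libraries. The sham sides did not overlap, with the operated side lower, and the MCAO sides did overlap. The log2 difference between the sham sides was −0.90 ± 0.32 (SE, unadjusted p 0.0104, adjusted p-value 1.00 in edgeR), ranked 21 of 17094. MCAO and sham did not overlap ipsilaterally, but their log2 difference of 0.47 ± 0.32 did not pass (adjusted p-value 0.766; 95% interval −0.19 to 1.14). The test of the difference between the sides gave 0.62 ± 0.45 (adjusted p-value 0.941).

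In the Hdac2 ECKO libraries Vcam1 stood at 182, 248 and 200 CPM, higher than in all 15 other libraries. Against MCAO ipsilateral this was a log2 difference of 1.02 ± 0.32, or 2.03-fold (unadjusted p 0.00452, adjusted p-value 0.394 in edgeR), and against sham ipsilateral 1.49 ± 0.33, or 2.82-fold (unadjusted p 1.55e-04, ranked 14, adjusted p-value 0.151). DESeq2 passed both, with adjusted p-values of 0.0479 and 0.00138. The Ezh2 ECKO libraries (127, 71.6 and 113 CPM) spread on both sides of the MCAO ipsilateral ones, with a log2 difference of 0.0086 ± 0.32 (95% interval −0.65 to 0.67), which was −0.34 once the GC trend was taken out and 0.19 without Ezh2 ECKO replicate 2. Set directly against each other, the deletions differed by 1.01 ± 0.32 in Vcam1 without overlap (unadjusted p 0.00480, adjusted p-value 0.230). The share of G and C in Vcam1, 40.1%, is lower than that of all but 8.47% of the genes at 10 CPM or more. The correlation of log2 level with GC content, described below for Icam2, was 0.109, 0.0535 and −0.224 in Hdac2 ECKO. In MCAO ipsilateral it was 0.312 to 0.414. Over the alternatives, GC removal included, Vcam1 in Hdac2 ECKO against MCAO ipsilateral ranged from 0.78 to 1.17. Globin made up 19.9%, 19.5% and 5.41% of counts in Hdac2 ECKO against 3.78% to 5.78%. The part of red cells in the Hdac2 ECKO differences was not tested.

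Icam1 encodes the cytokine-induced ligand of the beta-2 integrins. It stood at 20.1, 15.4 and 17.4 CPM in sham ipsilateral and 15.7, 31.4 and 21.4 in sham contralateral, and at 25.3, 14.9 and 27.1 in MCAO ipsilateral and 23.0, 37.4 and 53.2 in MCAO contralateral libraries. Sham and MCAO overlapped on both sides. The log2 differences were 0.35 ± 0.45 ipsilaterally (adjusted p-value 0.858 in edgeR; −0.0073 with the GC trend removed), 0.73 ± 0.45 contralaterally (0.920) and 0.54 ± 0.32 over both sides (0.665). Hdac2 ECKO libraries stood at 76.2, 28.2 and 41.0 CPM, all above MCAO ipsilateral, and Ezh2 ECKO libraries at 20.4, 11.0 and 15.0.

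Icam1 was higher in Hdac2 ECKO than in MCAO ipsilateral by 1.11 ± 0.45 on the log2 scale (unadjusted p 0.0232, adjusted p-value 0.442 in edgeR), and by 0.58 without Hdac2 ECKO replicate 1. In Ezh2 ECKO it differed by −0.53 ± 0.45 (adjusted p-value 0.495), a direction that turned to 0.12 once the GC trend of each library was removed. The 2 deletions differed from each other by 1.65 ± 0.46 without overlap (unadjusted p 0.00177, ranked 185, adjusted p-value 0.161). DESeq2 passed this difference with an adjusted p-value of 0.0109.

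Icam2 is the constitutive endothelial Icam, present without cytokine stimulation, and was the only one of the 9 genes that passed edgeR's test across all genes in any of the 11 comparisons. It stood at 337, 466 and 186 CPM in MCAO ipsilateral and at 71.8, 43.0 and 45.6 CPM in Ezh2 ECKO libraries, which did not overlap. It fell from 330 ± 140 to 53.5 ± 16.0 CPM (SD, n = 3 each), a log2 fold change of −2.62 ± 0.62 (SE; unadjusted p 3.95e-04, adjusted p-value 0.0426 in edgeR). The adjusted p-value missed the threshold without any 1 of 5 libraries, at 0.105 and 0.212 without MCAO ipsilateral replicates 1 and 2 and at 0.0577, 0.112 and 0.140 without Ezh2 ECKO replicates 1, 2 and 3. With the background as a covariate the log2 change was −1.42 (adjusted p-value 0.242), and with the replicate block −2.64 (0.0706). The background of the Ezh2 ECKO libraries was 268, 2083 and 600 CPM, and that of MCAO ipsilateral 242, 154 and 296.

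The Ezh2 ECKO libraries were also low in Icam2 against other groups. Sham ipsilateral libraries held 205, 96.1 and 126 CPM, all above them, a log2 difference of −1.41 ± 0.60 (unadjusted p 0.0283, adjusted p-value 0.701 in edgeR). Hdac2 ECKO libraries held 176, 176 and 210 CPM, higher by 1.81 ± 0.61 (unadjusted p 0.00708, adjusted p-value 0.264), and differed from MCAO ipsilateral by −0.82 ± 0.59 (0.686). Sham contralateral libraries (269, 96.7 and 321 CPM) and MCAO contralateral libraries (31.1, 408 and 347) were widely spread, and the 31.1 CPM came from the replicate of high background. MCAO and sham differed by 1.21 ± 0.60 ipsilaterally, with overlap (adjusted p-value 0.707).

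Other measures also differed between the Ezh2 ECKO and MCAO ipsilateral libraries. All 5 red cell markers fell in Ezh2 ECKO too, and summed to 70.1 to 671 CPM against 38267 to 65445 CPM in MCAO ipsilateral, and the 10 endothelial markers to 6842 to 10594 against 15188 to 24263. The endothelial sum was below MCAO ipsilateral in Hdac2 ECKO (10365 to 14874) and sham ipsilateral (9659 to 12468) as well. Single endothelial markers were split. In Ezh2 ECKO 5 of 10 had a log2 difference above 0 (median −0.076), with 3 higher and 4 lower at an unadjusted p under 0.05 in edgeR. In Hdac2 ECKO 5 of 10 were above 0 as well (median −0.058), with 4 higher and 2 lower. Levels followed GC content in opposite directions, with Spearman correlations across 7751 genes (not independent replicates) between GC content and the log2 level, taken relative to the average library, of −0.322 to −0.203 in Ezh2 ECKO and 0.312 to 0.414 in MCAO ipsilateral libraries. Negative correlations were not particular to Ezh2 ECKO. They were also found in sham ipsilateral replicate 2 (−0.392), sham contralateral replicate 2 (−0.201), MCAO contralateral replicate 1 (−0.251) and Hdac2 ECKO replicate 3 (−0.224). The other libraries of those groups were positive. Icam2 had 53.9% G and C, above 80.6% of genes. With that trend removed Icam2 kept a log2 change of −2.02 and an adjusted p-value of 0.0452. The part of red cells in the result was not tested.

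**Figure D3:**
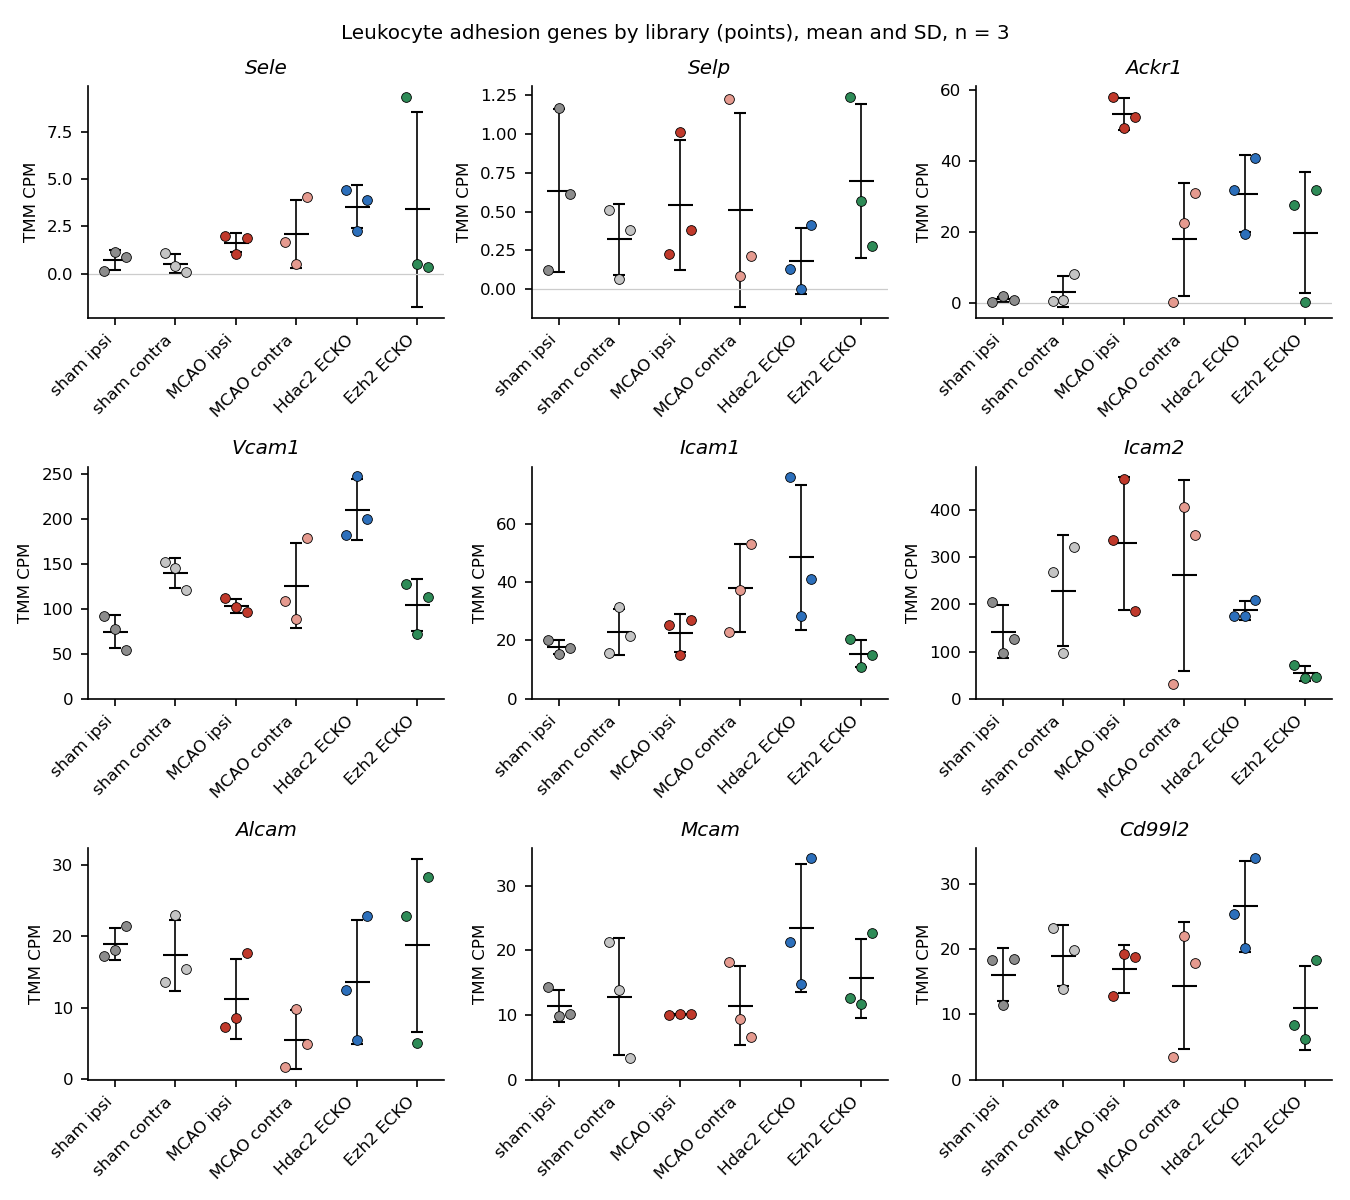
TMM CPM of the 9 genes in each library (points) with the group mean and SD (lines, n = 3), on an axis of its own for each gene; an SD larger than its mean reaches below 0. Ackr1 is near 50 CPM in all MCAO ipsilateral libraries, Vcam1 is highest in Hdac2 ECKO, and Icam2 is lowest in Ezh2 ECKO apart from 1 MCAO contralateral library at 31.1 CPM.

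Alcam, the endothelial ligand of CD6 on T cells, stood at 17.3, 18.1 and 21.5 CPM in sham ipsilateral and 13.6, 23.0 and 15.4 in sham contralateral libraries. In MCAO it stood at 7.32, 8.61 and 17.7 CPM ipsilaterally and at 1.73, 9.89 and 4.88 contralaterally. Contralateral MCAO libraries were all below contralateral sham libraries, while 1 ipsilateral MCAO library overlapped the sham range. Over both sides Alcam was lower in MCAO, with a log2 difference of −1.21 ± 0.48 (unadjusted p 0.0198, adjusted p-value 0.409 in edgeR), at −0.76 ± 0.67 ipsilaterally and −1.65 ± 0.69 contralaterally (unadjusted p 0.0249, adjusted p-value 0.920). Without MCAO contralateral replicate 1 it was −0.98 over both sides and −1.20 contralaterally. Hdac2 ECKO (12.5, 5.48 and 22.8 CPM) and Ezh2 ECKO (22.9, 5.04 and 28.3) overlapped MCAO ipsilateral. The 5.04 CPM came from Ezh2 ECKO replicate 2, of high background, and replicates 1 and 3 lay above all MCAO ipsilateral libraries.

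Mcam, the endothelial junction protein CD146, was nearly the same in the MCAO ipsilateral libraries (10.0, 10.2 and 10.1 CPM). It stood at 21.3, 14.7 and 34.3 CPM in Hdac2 ECKO, all higher, a log2 difference of 1.21 ± 0.59 (unadjusted p 0.0536, adjusted p-value 0.514 in edgeR), and at 12.7, 11.7 and 22.7 in Ezh2 ECKO, also all higher. Sham libraries ranged from 3.36 to 21.3 CPM over both sides, and MCAO contralateral ones from 6.60 to 18.3.

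Cd99l2 takes part in the passage of leukocytes through the endothelial wall. It stood at 12.7, 19.2 and 18.8 CPM in MCAO ipsilateral, 25.4, 20.2 and 33.9 in Hdac2 ECKO and 8.33, 6.20 and 18.3 in Ezh2 ECKO libraries. The Hdac2 ECKO libraries were above both other groups. The difference between the deletions was 1.27 ± 0.57 on the log2 scale (unadjusted p 0.0375, adjusted p-value 0.413 in edgeR). Sham libraries ranged from 11.4 to 23.3 CPM, and MCAO contralateral libraries from 3.39, in the replicate of high background, to 21.9.

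**Figure D4:**
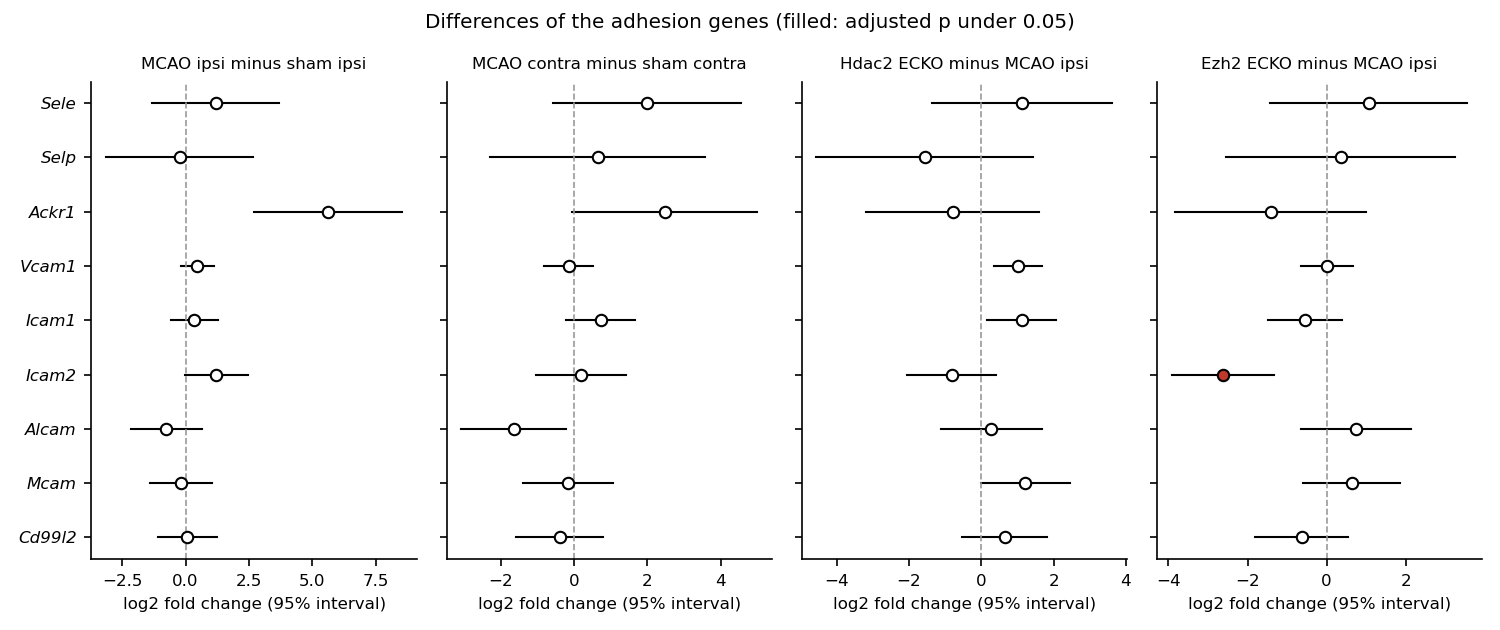
Log2 fold changes of the 9 genes (points) with 95% intervals (lines) in 4 comparisons, from edgeR's fit of all genes; a filled point has an adjusted p-value under 0.05. Icam2 in Ezh2 ECKO, at −2.62, is the only filled point, and Ackr1 in MCAO ipsilateral has the widest shift at 5.61.

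Counted as a group, 0 of the 9 genes had an adjusted p-value under 0.05 for the ipsilateral occlusion in edgeR, as for 0% of all 17094 genes. At an unadjusted p under 0.05 there was 1 of 9 (Ackr1), against 7.08% of all genes, and 1 of 9 passed in DESeq2, which called 59 genes in all, and in edgeR with the 2 groups alone, which called 74. Libraries did not overlap for 2 of 9 that were higher, Ackr1 and Vcam1, against 13.3% of all genes. Contralaterally 0 of 9 passed in edgeR (0% of all genes) and 0 in DESeq2 (28 genes in all), with 1 of 9 at an unadjusted p under 0.05 (4.41%), Alcam, the only 1 that was lower without overlap (6.00% of all genes). Over both sides 0 of 9 passed (0.152% of all genes), with Ackr1 higher and Alcam lower at an unadjusted p under 0.05 (9.09%), and 1 in DESeq2 (318 genes in all). Between the sides 0 of 9 passed in MCAO (0% of all genes; 0 at an unadjusted p under 0.05 against 3.08%), in sham (0%; 1 against 1.85%) and in the test of the difference between them (0%; 0 against 3.38%), and DESeq2 passed 0 of 9 in each (7, 5 and 5 genes in all). Without overlap, 1 of 9 was higher ipsilaterally in MCAO (Ackr1, against 3.49% of all genes) and 1 lower ipsilaterally in sham (Vcam1, against 6.98%).

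For Hdac2 ECKO against MCAO ipsilateral, 0 of 9 passed in edgeR (0.0117% of all genes) and 1 in DESeq2 (243 genes in all). At an unadjusted p under 0.05, 2 of 9 were higher and 0 lower, against 9.85% of all genes in either direction. Libraries did not overlap in 5 of 9 genes that were higher (Vcam1, Icam1, Sele, Mcam and Cd99l2), against 9.54% of all genes, and in 1 that was lower (Ackr1, against 10.3%). The median log2 difference was 0.65 over the 9 genes and 0.11 over all genes. For Ezh2 ECKO, 1 of 9 passed (1.46% of all genes), with 1 of 9 at an unadjusted p under 0.05 (19.2%) and a median of 0.0086 against 0.17 over all genes. Libraries did not overlap in 2 of 9 genes that were lower (Icam2 and Ackr1, against 15.3%) and 1 that was higher (Mcam, against 13.6%). Between the deletions 0 of 9 passed (0.123% of all genes; 1 in DESeq2, of 654 genes), 4 of 9 were higher in Hdac2 ECKO at an unadjusted p under 0.05 (6.96% of all genes were), the same 4 did not overlap (6.87%), and the median was 0.63 against −0.15. Against sham ipsilateral, 0 of 9 passed for Hdac2 ECKO (0%; 3 in DESeq2, of 223 genes; 3 of 9 at an unadjusted p under 0.05 against 7.14%; 6 of 9 higher without overlap against 6.96%), and 0 of 9 for Ezh2 ECKO (0.0410%; 1 in DESeq2, of 182 genes; 2 of 9 at an unadjusted p under 0.05 against 6.52%; 1 of 9 lower without overlap against 8.13%).

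The partner genes of adhesion were taken from 5 lists. Of 22 listed docking and transmigration genes, 21 were in the table and 18 were tested, and 1 fell in Ezh2 ECKO, where 1.46% of all genes were called. This was Ninj1, a homophilic adhesion protein of endothelial and myeloid cells, at 3.13, 3.24 and 2.24 CPM against 54.7, 76.2 and 37.8 in MCAO ipsilateral. Its log2 fold change was −4.29 ± 0.86 (SE, adjusted p-value 0.0291 in edgeR), and it missed the threshold with the background as a covariate (−2.70, adjusted p-value 0.148), with voom (0.0748), with the replicate block (0.0558) and without MCAO ipsilateral replicate 1 or 2 or Ezh2 ECKO replicate 2 or 3 (0.0727 to 0.159). In the same comparison 8 of 18 were lower at an unadjusted p under 0.05 (10.7% of all genes), and 5 of 18 lay above 0 (9478 of all 17094), with a median of −0.57 against 0.17 over all genes. The list had no called gene in the ipsilateral occlusion (median 0.15 against −0.094) or in Hdac2 ECKO (−0.32 against 0.11). By mean level it was led by Emcn, an endothelial sialomucin, at 1303 CPM in MCAO ipsilateral and 772 in Ezh2 ECKO.

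Of 22 receptors and regulators through which the adhesion genes are induced, all tested, 1 fell in Ezh2 ECKO, beside 1.46% of all genes called. Nfkbia, the inhibitor that NF-kB itself induces, stood at 317, 283 and 261 CPM there and at 990, 1230 and 544 in MCAO ipsilateral, without overlap. Its log2 fold change was −1.68 ± 0.42 (adjusted p-value 0.0479 in edgeR), and it missed the threshold with the background as a covariate (−1.02, 0.218), with the GC trend removed (0.0648), with no low-count filter (0.0518), with the replicate block (0.0809) and without any 1 of 5 libraries, all but MCAO ipsilateral replicate 3 (0.0726 to 0.257). In Hdac2 ECKO it ranged from 714 to 896 CPM. The median of the list was 0.25 in the ipsilateral occlusion, −0.066 in Hdac2 ECKO and −0.12 in Ezh2 ECKO.

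The leukocyte counter-receptors, 12 of 13 tested, had no called gene in any comparison. Itgb1, the integrin beta-1 that endothelial cells make themselves, stood at 232 ± 19.0 CPM in MCAO ipsilateral. Itga4, the alpha-4 partner that binds Vcam1, stood at 3.73 ± 3.05 CPM there. Cd44, also on the list, stood at 0.0456, 4.68 and 10.2 CPM there. The median log2 difference of the list was 0.29 in the ipsilateral occlusion (−0.094 over all genes), 1.27 contralaterally (0.17), 0.99 over both sides (0.064), −0.28 in Hdac2 ECKO (0.11) and 0.88 in Ezh2 ECKO (0.17). The beta-2 integrin gene Itgb2, common to the receptors of the Icam proteins, reached no more than 1.09 CPM in any library. Microglia and macrophage markers (10 genes, all detected in each group) summed to 5.70 to 27.6 CPM per library.

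The 14 adaptors that link adhesion proteins to the cytoskeleton and the 8 enzymes that build selectin ligands (6 tested) had no called gene in any comparison either. Cav1, the caveola scaffold, stood at 659 ± 110 CPM and Rac1, a small GTPase of the cytoskeleton, at 607 ± 201 in MCAO ipsilateral. St3gal6, a sialyltransferase, was the highest of the enzymes at 559 ± 58.3 CPM. The median log2 differences of these lists lay between −0.44 and 0.34 in the comparisons of occlusion and deletion.

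**Figure D5:**
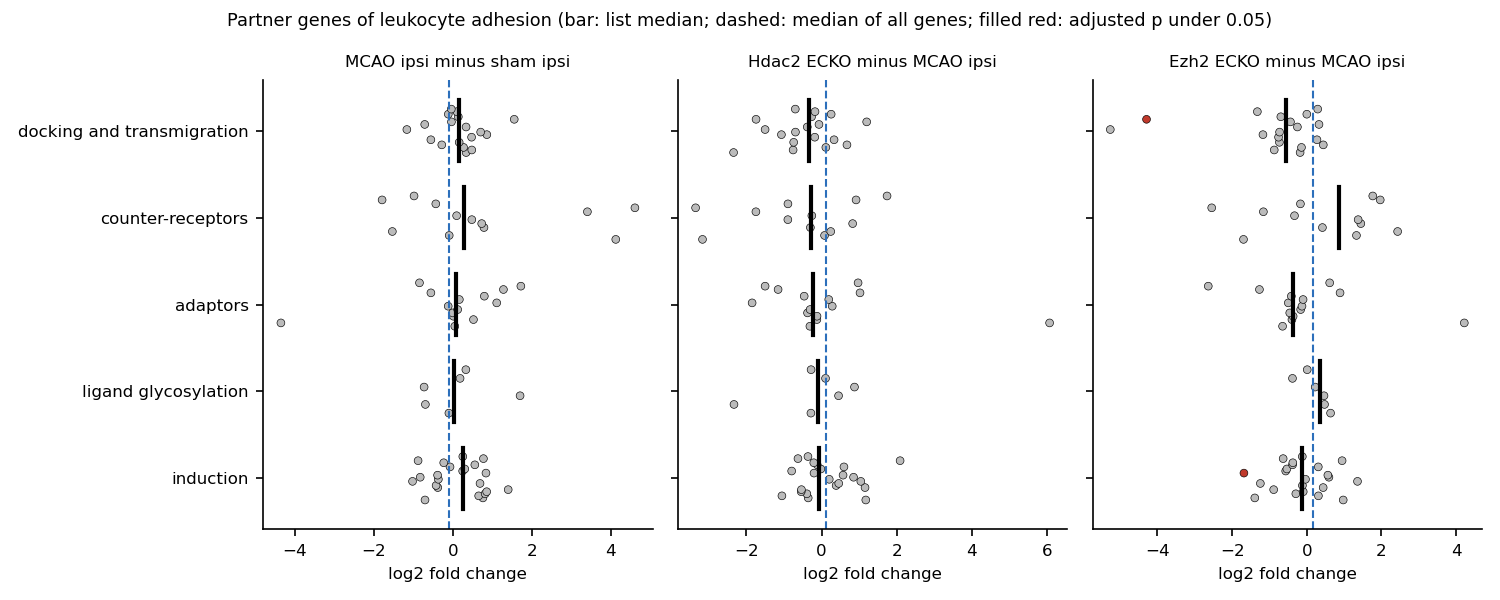
Log2 fold changes of the tested genes of 5 partner lists in 3 comparisons, with 1 point per gene, the list median (bar) and the median of all 17094 genes (dashed line); red points have an adjusted p-value under 0.05. Ninj1 at −4.29 and Nfkbia at −1.68, both in Ezh2 ECKO, are the red points.

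Likeness across the 18 libraries was described by Pearson's r of log2(CPM + 1) with 7807 other genes of at least 10 CPM, which share the same libraries, depth and background. Vcam1 was nearest to Edn1 (0.80), the endothelin-1 gene, and Icam1 to Atf3 (0.79), a stress-induced transcription factor, and both had Tm4sf1 as a near neighbour (0.78 and 0.77). Ackr1 was nearest to Ctsl (0.88) and Scgb3a1 (0.86), and Icam2 to S100a16 and U2af1l4 (both 0.97). Alcam was nearest to Ubr3 (0.89), Cd99l2 to Slc25a14 (0.90), Mcam to Ipmk (0.80) and Sele to Tbc1d15 (0.75). With a pseudocount of 0.1 in place of 1 the nearest gene became Cdk6 (0.76) for Sele and Zc3h7b (0.80) for Mcam. Selp was too low to be compared.

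Vcam1, Icam1, Selp, Cd99l2 and Mcam have annotated noncoding genes on the other strand that overlap their exons. Whether the counting used strand is not given in the sources used here, so reads of such partners cannot be told apart from theirs. Icam2, Sele and Alcam had no overlapping gene in GENCODE M21.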

How the data were processed

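The series is RNA sequencing of sorted mouse cortical endothelial cells, 18 libraries in 6 groups of 3, made with a SMART-Seq v4 PLUS kit, per the labels' protocols. The authors deposited 1 table of counts per gene. Its name calls the values normalized, but they are whole numbers with a different total in each library, and most low values are even, so they were used as counts in which both mates of a pair were counted. The submitters' processing notes name FastQC, cutadapt, STAR, featureCounts, DESeq2 and build mm10. Their roles and versions, the use of strand and the annotation are not given in the sources used here. Gene coordinates in the table match GENCODE M21. No column was left without a sample.

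Genes with at least 10 counts in at least 3 libraries were kept (17094 of 21638). Counts were scaled by TMM and fitted with 1 mean per group over all 18 libraries by edgeR 4.0.16 (quasi-likelihood F test, R 4.3.3), since the 6 groups then share 1 estimate of the spread. Standard errors are the log2 fold change over the root of F, p-values were adjusted by Benjamini-Hochberg over all tested genes, and an adjusted p-value under 0.05 was a call. Totals of 25791401 to 57576255 counts per library set the precision, and a floor of 3 counts covers counting error only. Alternatives were DESeq2 1.42.0, limma 3.58.1 (voom with sample weights), RLE scaling, other filters, the compared groups alone, the replicate block, the background as a covariate and leaving out each library. Leaving out both libraries of high background, summing the sides and removing the GC trend were added after seeing the data. The procedure was tested on simulated counts, drawn independently for each gene and library with changes set in Ezh2 ECKO only. They held no differences in background, no GC trend and no pairing of sides, so that test does not cover these.

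All 9 adhesion genes are described. Of each partner list the called genes and up to 2 of the highest mean level are named, and other named genes (Cadm3, Cd44, Nr2f2, Tmem252, Itgb2 and Ptprc) were chosen after their values were seen. The genes and lists were chosen with earlier results of these data known.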

Additional observations from a re-analysis of the deposited data

How the results depend on the processing

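Of the fold changes recomputed under alternatives or without single libraries, 595 kept their direction and side of the threshold, 20 passed it newly, 33 no longer passed and 8 changed direction. Counts of genes called varied widely between settings. In edgeR they were 0 ipsilaterally, 0 contralaterally, 26 over both sides, 0 for each side comparison and their difference, 2 for Hdac2 ECKO, 250 for Ezh2 ECKO, 21 between the deletions, and 0 and 7 for Hdac2 and Ezh2 ECKO against sham. In the same order DESeq2 called 59, 28, 318, 7 (sides in MCAO), 5 (sides in sham), 5 (their difference), 243, 1594, 654, 223 and 182. Voom with sample weights called 1273, 7 and 2199 for the occlusion, 1 for the sham sides, 1 for the difference of the sides, 32 for Hdac2 ECKO, 377 for Ezh2 ECKO, 4 between the deletions, and 266 and 11 against sham. With the compared groups alone edgeR called 74 ipsilaterally, 1 for the difference of the sides, 0 for Hdac2 ECKO, 485 for Ezh2 ECKO and 8 for Hdac2 ECKO against sham. With no filter it called 2 ipsilaterally, 38 between the deletions and 1 for Hdac2 ECKO against sham. With the background covariate it called 1 ipsilaterally, 99 over both sides, 10 for Hdac2 ECKO, 13 for Ezh2 ECKO, 54 between the deletions, and 6 and 12 against sham. With the GC trend removed it called 1 ipsilaterally, 49 over both sides, 1 for Hdac2 ECKO and 2 for it against sham, and under RLE scaling 40, 4 and 2 for the last 3. Without both high-background libraries it called 1 contralaterally, 498 over both sides, 1000 for Ezh2 ECKO, 115 between the deletions and 26 for Ezh2 ECKO against sham, and with the sides summed 8 over both sides. The cause was not tested.

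Of the 9 adhesion genes, DESeq2 called 1 ipsilaterally, 1 over both sides, 1 for Hdac2 ECKO, 1 between the deletions, and 3 and 1 against sham. The compared groups alone gave 1 ipsilaterally, voom 2 ipsilaterally, 4 over both sides and 2 for Hdac2 ECKO against sham, and leaving out both high-background libraries 1 over both sides and 1 for Ezh2 ECKO against sham. The call of Icam2 in Ezh2 ECKO was 0 with the background covariate. Directions changed for Icam1 with the GC trend removed (−0.0073 ipsilaterally, 0.12 in Ezh2 ECKO), for Ackr1 in Hdac2 ECKO with the background covariate (0.43) and for Vcam1 in Ezh2 ECKO with the GC trend removed (−0.34). Leaving out 1 library at a time gave 0 to 1 genes contralaterally, 0 to 266 over both sides, 0 to 18 for Hdac2 ECKO, 5 to 298 for Ezh2 ECKO, 9 to 73 between the deletions and 3 to 15 for Ezh2 ECKO against sham, 0 to 1 of the 9 adhesion genes over both sides and for Ezh2 ECKO, and −0.16 to 0.19 for Vcam1 in Ezh2 ECKO.

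The labels do not say whether equal replicate numbers pair the samples. Deviations from the group means correlated over 0.1 in 10 of 45 pairs of equal number and 33 of 90 of different number, and between the 2 sides of 1 condition in 4 of 6 and 4 of 12. Not every pair of equal number passed 0.1, so the block was kept as an alternative. It tied libraries of equal number across all 6 groups, so it does not test pairing of the 2 sides. The side comparisons were fitted without pairing. With the replicate block edgeR called 4 genes over both sides, 12 for Ezh2 ECKO and 9 between the deletions, with 0 of the 9 adhesion genes for Ezh2 ECKO, and Vcam1 there was −0.0041. Counts of Selp and Sele limited what depth could show for both.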
